A study of Mus musculus with 6 samples.

Results

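The genes described here are 31 genes that mark the B cell lineage, of 19752 genes that could be named on the arrays. They hold the signalling chains and adaptors of the B cell receptor, surface receptors and coreceptors of mature B cells, transcription factors of the lineage and a few further genes. Each gene was found by its RefSeq accession and read from its brightest probe. All 31 were measured, 20 with a single probe and 11 with several. Of these, 24 were well above background on every array and 7 were not: Ms4a1, Pax5, Blk, Fcrl1, Tnfrsf13c and Klhl14 on 4 arrays, and Fcmr on 5.

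RNA came from homogenised whole lung of mice that the labels give as C57BL/6: wild type (WT), FcRg-/- (labelled FcRg KO) and FceRIa-/- (labelled FceRIa KO). FcRg is the common signalling chain of several Fc receptors, encoded by Fcer1g, and FceRIa is the IgE-binding chain of the high-affinity IgE receptor, encoded by Fcer1a. Each kind of mouse received either PBS or mouse histamine-releasing factor (HRF, with a His tag in the labels) through the nose. HRF is the secreted product of Tpt1 and is known to bind some IgE molecules, and the series asks about its part in asthma and allergy. Each of the 6 groups is 1 array, and the labels name no dose, time, age, source of the knockout lines or number of mice behind an array. A ratio between single arrays therefore has no replicate check. The p-values below rest on how these 6 arrays scatter around a fitted model and not on differences between mice.

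Levels are given as log2 of the processed spot signal relative to the 75th percentile of its array, so that 0 is that percentile and 1 unit is a factor of 2. All arrays lay on 1 slide scanned on 1 day, between 67.5% and 79.6% of their spots were well above background, and no spot was saturated. The targeted genes did not bear out the knockout labels. In WT, Fcer1g stood at 3.93 with PBS and 4.61 with HRF, and under the FcRg KO label at 4.14 and 4.32. Fcer1a stood at -4.48 and -4.19 in WT, and at -0.90 and -1.16 on the arrays labelled FceRIa KO, where a loss would be looked for. The probes' place relative to the deleted parts is not given, so these levels check the labels only in part. The groups are therefore called by their labels throughout.

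B cells recognise antigen with a membrane immunoglobulin that is paired with the signalling chains CD79a and CD79b. Coreceptors such as CR2 lower the threshold for signalling, and inhibitory lectins such as CD22 raise it. Pax5 and Ebf1 hold the lineage's identity, and the BAFF receptor, encoded by Tnfrsf13c, keeps mature B cells alive. In the lung, B cells are found scattered in the tissue and in lymphoid aggregates near airways, and their IgE arms mast cells and basophils.

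Most of the 31 genes were far lower on both arrays labelled FcRg KO, and under the FceRIa KO label none was 1.5-fold off WT. Under the FcRg KO label the median log2 difference from WT was -2.77 with PBS and -2.69 with HRF, against -0.01 and 0.03 over all genes compared. With PBS, 24 of the 31 were at least 2-fold lower and 0 at least 2-fold higher, where 5.71% of all genes compared were at least 2-fold lower and 0.788% higher. With HRF the counts were again 24 and 0, against 4.29% lower and 1.17% higher among all genes. In both, 23 of the 31 genes were at least 2-fold lower, as were 208 of the 17386 genes compared with PBS. The PBS and the HRF comparison share no array. On 30 of the 31 genes both arrays labelled FcRg KO lay below their WT counterparts, and Fcrl5 was the exception. Over all genes compared, the difference was above 0 for 48.6% with PBS and 53.7% with HRF. Scaled on the array median in place of the 75th percentile, every PBS difference of this pair moves up by 0.27, and Cd180 then also lies above WT with PBS. In bulk lung RNA, fewer B cells and less RNA per B cell cannot be told apart.

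**Figure D1:**
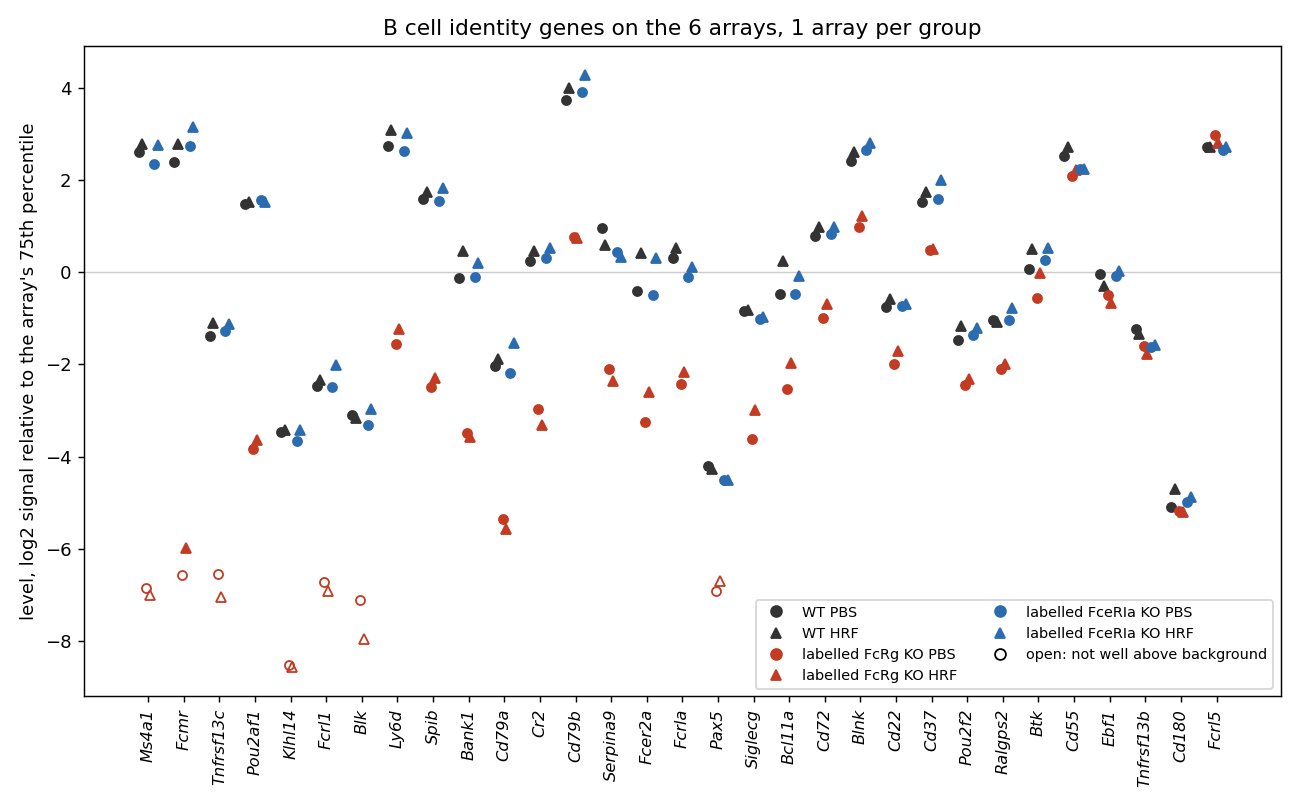
Level of each of the 31 genes on each of the 6 arrays, 1 point per array, as log2 signal relative to the array's 75th percentile; genes run from the lowest to the highest difference between the arrays labelled FcRg KO and WT. The red points of 29 genes lie below all black and blue points, from Ms4a1 at the left with red points at -6.84 and -7.01, and open points are not well above background.

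A limma fit over all 17615 genes, with the genotype label and the challenge as terms, gave the difference of the arrays labelled FcRg KO from WT over both challenges. At a Benjamini-Hochberg adjusted p under 0.05, 25 genes were lower, 0.142% of those tested, and 1 was higher (0.00568%), which was none of the 31. Of the 25, 13 were among the 31 genes: Ms4a1, Fcmr, Tnfrsf13c, Pou2af1, Klhl14, Fcrl1, Ly6d, Spib, Cd79b, Serpina9, Fcer2a, Fcrla and Pax5. Of these 13, Ms4a1, Tnfrsf13c, Klhl14, Fcrl1 and Pax5 were not well above background on either array labelled FcRg KO, nor was Fcmr on the PBS array. They entered the fit through the other arrays, and their fitted differences use signal near background. The other 7 were well above background on all 6 arrays. A further 16 were lower at an unadjusted p under 0.05 only, and Cd180 and Fcrl5 were not. Over all 17615 genes, 1358 were lower at an unadjusted p under 0.05 (7.71%), those past the adjusted threshold included. Both arrays labelled FcRg KO lay below all 4 other arrays for 29 of the 31 genes, a pattern shown by 7.89% of all genes tested. Some gaps were small, as for Cd55, at 2.21 on the HRF array labelled FcRg KO and 2.23 on the PBS array labelled FceRIa KO. Scaled on the array median, Cd180 and Btk no longer show the pattern, so the count of 29 rests on the scaling. Fcrl5 lay above all 4 others, and for Tnfrsf13b, read from its brightest probe, the arrays overlapped.

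**Figure D2:**
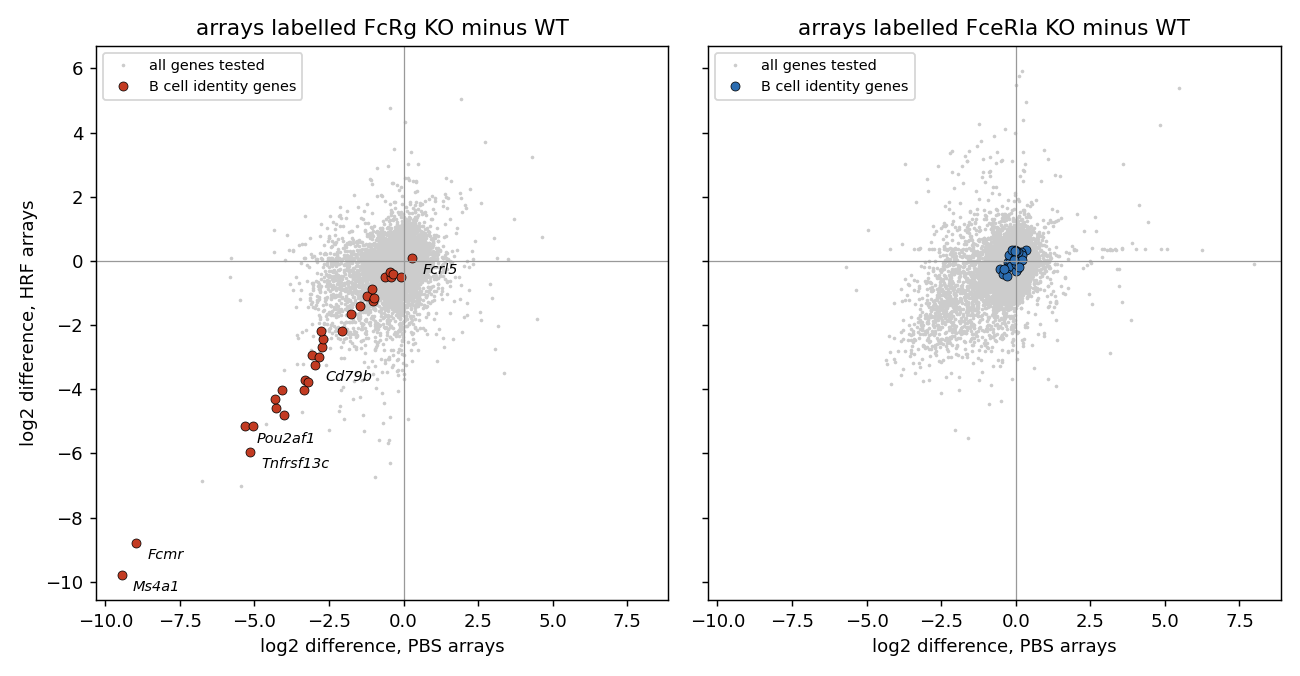
Log2 difference from WT on the PBS arrays (horizontal) and on the HRF arrays (vertical), for all 17615 genes tested (grey, measured levels without bounds) and the 31 genes (coloured), with arrays labelled FcRg KO at the left and FceRIa KO at the right. At the left the 31 genes run from Fcrl5 at 0.27 and 0.10 down to Ms4a1 at -9.45 and -9.79, and at the right they lie between -0.51 and 0.35 on both axes.

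Since these genes were lower together, their promoters were searched for 4 short motifs of B cell factors, from 250 bases before to 50 after the RefSeq start (assembly GRCm38.p6), on both strands. The table of promoters held 25 of the 31 genes, with 31 windows of 32851 in all, some genes having more than 1 window. Ms4a1, Cd79b, Blk, Ly6d, Klhl14 and Serpina9 were not in it and were not searched. The octamer ATGCAAAT, bound by Pou2f2 and its coactivator Pou2af1, occurs in 1.74% of all windows and in 1 of the 31 windows, that of Blnk. An Ebf-type motif, CCCNNGGG, occurs in 13.7% of all windows and in 12.9% of the 31 windows, and the E box CAGCTG in 16.3% and 12.9%. The Ets-type motif GAGGAAGT is of the kind bound by PU.1 and Spi-B. It occurs in 3.20% of all windows and in 9.68% of the 31 windows, those of Cd37, Cd72 and Fcrl1. A match is a description of letters and shows no binding. One promoter with each motif is printed from RefSeq, with the matched letters in capitals, read along the gene's strand. Fcmr lies at chr1:130865527-130865826 on the plus strand, with the E box starting at -176 from the start. Spib lies at chr7:44532022-44532321 on the minus strand, with overlapping Ebf-type matches starting at -65 and -64. Fcrl1 lies at chr3:87376137-87376436 on the plus strand, with the Ets-type motif at -15 on the opposite strand. Blnk lies at chr19:40994172-40994471 on the minus strand, with the octamer at -130 on the opposite strand. Fcmr, Spib and Fcrl1 were called lower above, and Blnk was not past the threshold.
Fcmr: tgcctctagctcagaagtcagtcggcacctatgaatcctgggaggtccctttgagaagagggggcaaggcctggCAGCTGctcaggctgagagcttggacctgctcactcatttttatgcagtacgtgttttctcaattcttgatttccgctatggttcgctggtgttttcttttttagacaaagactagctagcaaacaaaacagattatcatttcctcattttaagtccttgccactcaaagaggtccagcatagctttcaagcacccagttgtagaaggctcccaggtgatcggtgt
Spib: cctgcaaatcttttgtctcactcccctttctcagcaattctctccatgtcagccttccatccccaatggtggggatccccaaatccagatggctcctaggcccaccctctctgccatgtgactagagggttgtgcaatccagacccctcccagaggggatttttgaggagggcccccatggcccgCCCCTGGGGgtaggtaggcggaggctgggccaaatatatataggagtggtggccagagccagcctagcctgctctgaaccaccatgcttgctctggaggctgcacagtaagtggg
Fcrl1: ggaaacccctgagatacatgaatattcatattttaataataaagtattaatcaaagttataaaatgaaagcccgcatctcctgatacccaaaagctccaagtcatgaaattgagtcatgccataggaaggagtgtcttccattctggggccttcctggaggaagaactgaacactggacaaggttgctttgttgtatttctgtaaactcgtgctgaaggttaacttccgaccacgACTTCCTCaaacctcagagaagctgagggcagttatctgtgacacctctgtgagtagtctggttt
Blnk: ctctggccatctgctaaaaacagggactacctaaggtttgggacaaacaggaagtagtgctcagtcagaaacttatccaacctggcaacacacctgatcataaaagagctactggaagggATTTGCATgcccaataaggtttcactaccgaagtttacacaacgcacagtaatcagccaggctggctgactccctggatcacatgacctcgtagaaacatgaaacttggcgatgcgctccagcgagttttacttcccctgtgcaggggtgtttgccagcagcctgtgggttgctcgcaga

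Of the receptor's signalling chains, Cd79b stood at 3.74 with PBS and 3.99 with HRF in WT, 3.91 and 4.27 under the FceRIa KO label, and 0.76 and 0.74 under the FcRg KO label. Its log2 difference from WT under the latter was -3.11 (SE 0.13, limma adjusted p = 0.038). Its partner Cd79a stood at -2.04 and -1.87 in WT, -2.18 and -1.53 under the FceRIa KO label, and -5.35 and -5.57 under the FcRg KO label. That difference, -3.50 (SE 0.24), missed the threshold with an adjusted p of 0.085. For both chains the arrays labelled FcRg KO lay apart from the other 4.

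Blk, a Src-family kinase of B cells, stood at -3.10 and -3.16 in WT and at -3.31 and -2.97 under the FceRIa KO label. It was not well above background on either array labelled FcRg KO. In the processed signal that puts it at least 16.2-fold lower than WT with PBS and at least 27.9-fold lower with HRF (limma adjusted p = 0.098). Bank1, a scaffold that joins receptor and kinases, stood at -0.14 and 0.45 in WT, -0.10 and 0.19 under the FceRIa KO label, and -3.48 and -3.58 under the FcRg KO label. Its difference of -3.69 (SE 0.20) had an adjusted p of 0.052. Blnk, the adaptor that links Syk to downstream enzymes, stood at 2.42 and 2.62 in WT, 2.65 and 2.80 under the FceRIa KO label, and 0.97 and 1.22 under the FcRg KO label (difference -1.42, SE 0.08, adjusted p = 0.061). Btk, the kinase that activates phospholipase C in B cells and is also made in myeloid cells, differed less. It stood at 0.06 and 0.50 in WT, 0.25 and 0.52 under the FceRIa KO label, and -0.56 and -0.01 under the FcRg KO label, a difference of -0.56 (SE 0.11, adjusted p = 0.301). In all 4 genes the arrays labelled FcRg KO did not overlap with the others, although for Btk the gap between the HRF array with the FcRg KO label and the WT PBS array was small. Scaled on the array median, that Btk gap is gone.

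The wider list of B cell receptor signalling, with 30 genes outside the 31, held 1 gene that passed the test, and its median log2 difference under the FcRg KO label was -0.24. Of its 30 genes, 10 were lower at an unadjusted limma p under 0.05 and 0 higher, where 7.71% of all genes were lower. For 11 of the 30 both arrays labelled FcRg KO lay below all 4 others, where 7.89% of all genes did. Syk, the kinase recruited by CD79, differed by -0.94 (limma adjusted p = 0.274) and Lyn by -0.16 (adjusted p = 0.714). Cd40, the receptor for T cell help, differed by -0.02, and the list's most abundant signals, Cd81, Grb2 and Plcg2, by 0.15, -0.10 and -0.37, none past the threshold.

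Among the surface proteins, Ms4a1, which encodes CD20, stood at 2.60 and 2.78 in WT and at 2.36 and 2.76 under the FceRIa KO label, and it was not well above background on either array labelled FcRg KO. In the processed signal that is at least 698-fold lower than WT with PBS and at least 885-fold lower with HRF (limma adjusted p = 0.00828). These folds are ratios to the signal left there, near background, and set no firm lower limit. Fcmr, the receptor for the Fc part of IgM, stood at 2.39 and 2.79 in WT and at 2.75 and 3.14 under the FceRIa KO label. Under the FcRg KO label it was not well above background with PBS and stood at -5.99 with HRF. It was at least 496-fold lower than WT with PBS and 439-fold lower with HRF (limma adjusted p = 0.00418). Both genes thus left a signal near background on the arrays labelled FcRg KO beside a bright one on the other 4.

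Fc receptor-like proteins, which tune B cell activation, did not all follow. Fcrl1 stood at -2.46 and -2.34 in WT and at -2.49 and -2.01 under the FceRIa KO label, and was not well above background under the FcRg KO label. It was at least 19.2-fold lower than WT with PBS and at least 23.8-fold lower with HRF (limma adjusted p = 0.038). Fcrla, an intracellular relative, stood at 0.32 and 0.53 in WT, -0.11 and 0.12 under the FceRIa KO label, and -2.42 and -2.16 under the FcRg KO label (difference -2.71, SE 0.08, adjusted p = 0.022). It is the only one of the 31 genes within 10 Mb of Fcer1g, and the only one within 10 Mb of Fcer1a. Fcrl5 stood at 2.71 and 2.71 in WT, 2.64 and 2.72 under the FceRIa KO label, and 2.98 and 2.80 under the FcRg KO label (difference 0.18, SE 0.10, adjusted p = 0.483). Its probes disagreed. A dimmer probe to another transcript differed from WT by -1.23 with PBS and -1.06 with HRF under the FcRg KO label, and by -0.64 and -1.21 under the FceRIa KO label. That probe was well above background on 5 arrays only, so not all of these differences are measured on both sides.

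Fcer2a encodes CD23, the low-affinity IgE receptor of B cells. It stood at -0.40 with PBS and 0.41 with HRF in WT, -0.49 and 0.31 under the FceRIa KO label, and -3.25 and -2.60 under the FcRg KO label. The label's difference was -2.93 (SE 0.09, limma adjusted p = 0.025), so the IgE receptor of B cells was lower on the arrays labelled FcRg KO than on any other array. Cr2, the complement receptor of the B cell coreceptor complex, stood at 0.24 and 0.46 in WT, 0.31 and 0.54 under the FceRIa KO label, and -2.96 and -3.32 under the FcRg KO label. That difference of -3.49 (SE 0.20) had an adjusted p of 0.056. Cd55, a broadly made regulator of complement, stood at 2.51 and 2.72 in WT, 2.23 and 2.24 under the FceRIa KO label, and 2.09 and 2.21 under the FcRg KO label (difference -0.46, adjusted p = 0.309).

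The inhibitory receptors were lower to different degrees. Siglecg, a sialic acid-binding lectin, stood at -0.85 and -0.81 in WT, -1.01 and -0.96 under the FceRIa KO label, and -3.62 and -2.99 under the FcRg KO label (difference -2.48, SE 0.19, limma adjusted p = 0.110). Cd72, a lectin that binds CD100, stood at 0.78 and 0.99 in WT, 0.83 and 0.98 under the FceRIa KO label, and -0.99 and -0.68 under the FcRg KO label (difference -1.72, SE 0.09, adjusted p = 0.051). Cd22 stood at -0.75 and -0.59 in WT, -0.73 and -0.69 under the FceRIa KO label, and -1.98 and -1.70 under the FcRg KO label (difference -1.17, SE 0.10, adjusted p = 0.125). None of the 3 passed the threshold, although in each the arrays labelled FcRg KO lay below the other 4.

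Ly6d, a surface marker of B cell commitment, stood at 2.74 and 3.09 in WT, 2.63 and 3.02 under the FceRIa KO label, and -1.56 and -1.22 under the FcRg KO label. It fell by 4.30 (SE 0.08, limma adjusted p = 0.00828). Cd37, a tetraspanin of mature lymphocytes, stood at 1.52 and 1.74 in WT, 1.58 and 2.01 under the FceRIa KO label, and 0.49 and 0.50 under the FcRg KO label (difference -1.13, SE 0.14, adjusted p = 0.196). Cd180, a Toll-like receptor homologue, was dim everywhere, at -5.10 and -4.70 in WT, -4.99 and -4.88 under the FceRIa KO label, and -5.18 and -5.20 under the FcRg KO label (difference -0.29, SE 0.14, adjusted p = 0.431).

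The receptors for the survival factor BAFF differed from each other. Tnfrsf13c, the BAFF receptor, stood at -1.39 and -1.10 in WT and at -1.27 and -1.12 under the FceRIa KO label, and was not well above background under the FcRg KO label. It was at least 35.4-fold lower than WT with PBS and at least 61.5-fold lower with HRF (limma adjusted p = 0.038). Its second, dimmer probe was well above background on 4 arrays only and gives no measured difference. Tnfrsf13b, which encodes TACI, stood at -1.22 and -1.35 in WT, -1.63 and -1.59 under the FceRIa KO label, and -1.59 and -1.76 under the FcRg KO label (difference -0.39, adjusted p = 0.339). A dimmer Tnfrsf13b probe, well above background on all 6 arrays, did not overlap. It stood at -4.65 and -4.94 in WT, -4.97 and -5.14 under the FceRIa KO label, and -5.42 and -5.78 under the FcRg KO label. Tnfsf13b, which encodes BAFF itself, differed by -0.08 (adjusted p = 0.936).

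The lineage's transcription factors also divided. Pou2af1, the octamer coactivator, stood at 1.47 and 1.53 in WT, 1.56 and 1.52 under the FceRIa KO label, and -3.84 and -3.63 under the FcRg KO label. It fell by 5.23 (SE 0.10, limma adjusted p = 0.00828). Spib, an Ets factor of B cells and plasmacytoid dendritic cells, stood at 1.58 and 1.73 in WT, 1.55 and 1.82 under the FceRIa KO label, and -2.50 and -2.28 under the FcRg KO label. It fell by 4.04 (SE 0.08, adjusted p = 0.00828). Pax5, the factor that commits cells to the B lineage, was dim, at -4.21 and -4.27 in WT and -4.50 and -4.50 under the FceRIa KO label. It was not well above background under the FcRg KO label, at least 6.52-fold lower than WT with PBS and at least 5.40-fold lower with HRF (adjusted p = 0.038). It passed in 3 of the 8 settings that tested it, with a fitted difference between -2.70 and -0.81.

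The fitted differences of the other genes near background under the FcRg KO label also moved with the processing, and normexp with quantile normalization gave the smallest of each. Across the 8 settings that tested them, Klhl14 ranged from -5.10 to -1.45 and passed in 8 of 8, and Fcrl1 ranged from -4.42 to -1.87 and passed in 6 of 8. Tnfrsf13c ranged from -5.54 to -2.92 and passed in 5 of 8, and Blk ranged from -4.41 to -1.49 and passed in 3 of 8. Ms4a1 ranged from -9.62 to -6.69 and Fcmr from -8.87 to -6.44, and both passed in 8 of 8. The folds given as at least are bounds on the processed signal only. Except for Klhl14, each is the ratio to the spot's own signal, not well above background, and sets no firm lower limit. Every smallest difference named here was smaller than its gene's bounds.

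Bcl11a, a zinc finger factor that early lymphoid development needs, stood at -0.48 and 0.24 in WT, -0.48 and -0.08 under the FceRIa KO label, and -2.54 and -1.96 under the FcRg KO label (difference -2.13, SE 0.11, limma adjusted p = 0.052). Pou2f2, the lymphoid octamer-binding factor, stood at -1.47 and -1.16 in WT, -1.36 and -1.20 under the FceRIa KO label, and -2.46 and -2.32 under the FcRg KO label (difference -1.08, SE 0.09, adjusted p = 0.125). Ebf1, which is also made in stromal cells and adipocytes, stood at -0.04 and -0.30 in WT, -0.07 and 0.02 under the FceRIa KO label, and -0.49 and -0.66 under the FcRg KO label (difference -0.40, SE 0.12, adjusted p = 0.362). Of 13 further transcription factors of the B lineage, many shared with other blood cells, 0 passed the test (limma, 2 at an unadjusted p under 0.05), with a median difference of -0.21. Klf2, Id3 and Irf8, the brightest of them, differed by -0.21, -0.02 and -0.33.

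The other 3 genes were Klhl14, Serpina9 and Ralgps2. Klhl14, a Kelch protein of B cells, stood at -3.46 and -3.41 in WT and -3.66 and -3.43 under the FceRIa KO label, and was not well above background under the FcRg KO label. It was at least 15.2-fold lower than WT with PBS and at least 23.8-fold lower with HRF (limma adjusted p = 0.00828). Serpina9, a protease inhibitor of germinal centre B cells, stood at 0.96 and 0.59 in WT, 0.45 and 0.33 under the FceRIa KO label, and -2.10 and -2.36 under the FcRg KO label (difference -3.00, SE 0.10, adjusted p = 0.025). Ralgps2, an exchange factor for Ral GTPases, stood at -1.03 and -1.09 in WT, -1.03 and -0.78 under the FceRIa KO label, and -2.09 and -1.98 under the FcRg KO label (difference -0.98, SE 0.11, adjusted p = 0.183).

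Genes of neighbouring functions were then set beside the 31. In the list of plasma cell and immunoglobulin genes, 1 of 12 tested passed, Mzb1, a chaperone of secreted IgM, with a difference of -2.80 (SE 0.10, limma adjusted p = 0.025). The list's heavy and light chain genes, Ighm, Igha, Ighg1, Igkc and Iglc1, could not be named on the arrays and were not tested. Jchain, which joins IgM and IgA into polymers, stood at -1.12 and 0.92 in WT and at 1.54 and 2.30 under the FceRIa KO label. Under the FcRg KO label Jchain was not well above background with PBS and stood at -6.10 with HRF, at least 43.2-fold lower than WT with PBS and 130-fold lower with HRF (limma adjusted p = 0.092). Xbp1, Creld2 and Sdc1, the list's brightest genes, differed by -0.15, 0.19 and 0.11. Among follicle chemokines and lymphotoxins, 1 of 15 passed: Cxcr5, which guides B cells into follicles, differed by -4.84 (SE 0.16, adjusted p = 0.025). In that list 4 of 15 were lower at an unadjusted p under 0.05, and Ccr6, a chemokine receptor of B cells and other leukocytes, differed by -2.50 (adjusted p = 0.183). Ccr7 differed by -0.27, and the chemokine Cxcl13 by -1.87 (SE 0.91, adjusted p = 0.438). In the class II list, 1 of 10 passed, H2-Ob, which encodes a chain of the B cell-rich modulator H2-O (difference -2.51, SE 0.09, adjusted p = 0.030), while H2-Ab1, H2-Eb1 and Cd74, which all antigen-presenting cells make, differed by -0.12, -0.23 and -0.13. The class II list held 5 of 10 genes lower at an unadjusted p under 0.05. H2-DMb2 and H2-Oa, chains of class II peptide loading and its modulator, differed by -2.29 (limma adjusted p = 0.090) and -1.54 (adjusted p = 0.062), and Ciita, the class II transactivator, by -0.73 (adjusted p = 0.307). Of 13 genes of other B cell stages, 0 passed (3 at an unadjusted p under 0.05), with a median of -0.13. Mzb1, Jchain, H2-Ob, H2-DMb2, H2-Oa, Ciita and Ccr6 were named after their values were seen.

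**Figure D3:**
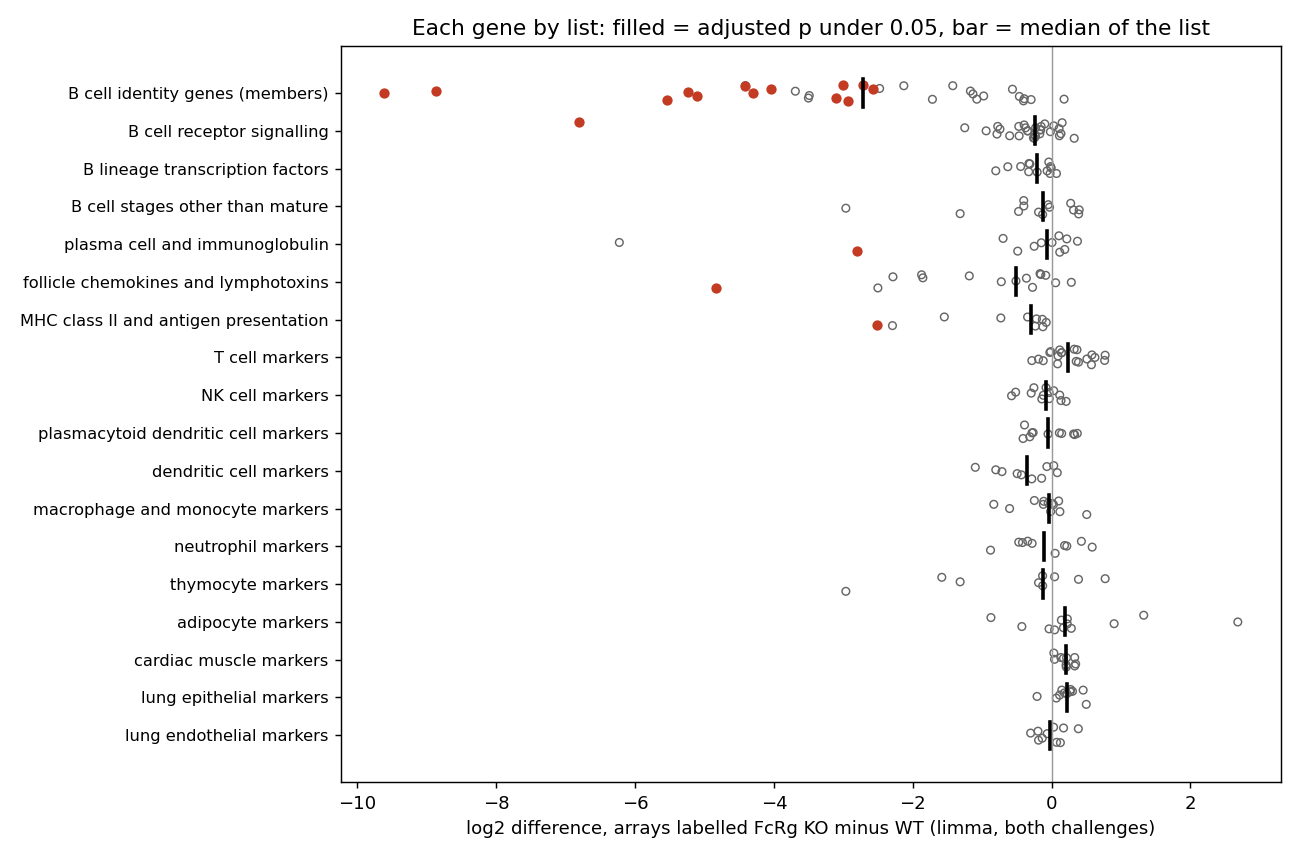
Log2 difference between the arrays labelled FcRg KO and WT over both challenges (limma) for each gene of each list, with the list's median as a bar and genes at an adjusted p under 0.05 filled. The 31 genes have a median of -2.71 and 13 filled points, and no other list has more than 1.

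Markers of 11 other cell types and tissues gave medians from -0.36 (dendritic cells) to 0.24 (T cells) in that comparison. In these lists 0 markers passed, and 0 to 5 genes a list had an unadjusted limma p under 0.05, where 13.4% of all genes did. The highest counts were 5 of 20 T cell genes, all higher, and 5 of 9 thymocyte genes, 3 lower and 2 higher. The T cell list lay a little the other way with PBS. For 9 of its 20 genes both arrays labelled FcRg KO lay above all 4 others, where 11.5% of all genes did, and its median difference was 0.54 with PBS and -0.01 with HRF. Its summed level, in multiples of the 75th percentile, was 29.7 and 40.4 in WT, 40.9 and 39.2 under the FcRg KO label, and 27.9 and 32.5 under the FceRIa KO label. The summed level of the 31 genes was 71.6 and 83.1, 21.8 and 22.3, and 72.3 and 87.0 in that order. Markers of fat and heart muscle also differed between arrays, with summed levels of 216 for fat and 513 for heart on the PBS array labelled FcRg KO, against 131 and 369 in WT, and of 112 and 268 against 126 and 281 on the HRF arrays. Their part in the B cell result was not tested.

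The 31 genes lie on 14 chromosomes. Of these, 5 share chromosome 1 with Fcer1g, and only Fcrla is within 10 Mb of it. Fcrla is also the only one within 10 Mb of Fcer1a.

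On the arrays labelled FceRIa KO, the 31 genes stayed close to WT. The median difference was -0.03 with PBS and -0.02 with HRF, the range over the 31 was -0.51 to 0.35 and -0.48 to 0.35, and 0 genes were 1.5-fold off in either direction. Over all genes compared, 11.4% were at least 1.5-fold lower and 1.45% higher with PBS, and 9.12% and 3.58% with HRF. Scaled on the median, the PBS differences move up by 0.23, which turns the PBS median to 0.20, so its sign rests on the scaling. In the limma fit 0 of the 31 and 0% of all genes passed, and 5 of the 31 had an unadjusted p under 0.05, where 2265 of the 17615 genes did (12.9%). The lowest adjusted p among the 31 was 0.231, for Fcrla (difference -0.42). Both arrays labelled FceRIa KO lay below all 4 others for 0 of the 31 genes, where 11.9% of all genes did, and above them for 2, Blnk and Ralgps2, where 5.88% did.

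The knockout labels were also compared directly. The arrays labelled FceRIa KO lay above those labelled FcRg KO by a median of 2.55 with PBS and 2.28 with HRF, and 25 of the 31 genes were at least 2-fold higher in each, against backgrounds of 1.49% and 2.36%. In the limma fit the same 13 genes passed that were lower than WT under the FcRg KO label, of 23 genes higher in all (0.131%). Both comparisons use the same arrays labelled FcRg KO.

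Differences between HRF and PBS were small in the 31 genes. Their median log2 ratio of HRF over PBS was 0.19 in WT, 0.13 under the FcRg KO label over the 25 genes measured there, and 0.23 under the FceRIa KO label, against -0.05, 0.00 and -0.01 over all genes compared. The ratio was positive for 24 of 31, 16 of 25 and 29 of 31 genes, in that order, against 7452 of 17446, 8347 of 16608 and 7712 of 16327 of all genes compared. Scaled on the median, the WT ratios move up by 0.22 and those counts become 29, 15 and 30. No gene of the 31 was 2-fold off in any label, where 2.48% of all genes were higher and 2.86% lower in WT, 1.23% and 1.6% under the FcRg KO label, and 1.97% and 0.808% under the FceRIa KO label. At least 1.5-fold higher were 3 genes in WT (background 5.45%), 2 under the FcRg KO label (3.52%) and 2 under the FceRIa KO label (4.04%), and 0 were 1.5-fold lower (9.11%, 3.88% and 2.55%).

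Fcer2a, the low-affinity IgE receptor, was the 1 gene above 1.5-fold in all 3 labels, with log2 ratios of 0.81 in WT, 0.65 under the FcRg KO label and 0.80 under the FceRIa KO label. The other ratios above 1.5-fold were Bcl11a at 0.72 and Bank1 at 0.59 in WT, Siglecg at 0.63 under the FcRg KO label and Cd79a at 0.65 under the FceRIa KO label. In the limma fit for HRF over the labels, 0 of 17615 genes passed in either direction (0%), with 1549 at an unadjusted p under 0.05. Of all genes tested, 640 were higher (3.63%) and 909 lower (5.16%) at that unadjusted p. Of the 31 genes, 10 had an unadjusted p under 0.05, 9 higher and 1 lower (Serpina9), and Fcer2a had the smallest (0.76, SE 0.07, unadjusted p = 0.000867, adjusted p = 0.558). The fit takes its error from how the HRF ratio varies between the labels, with 2 residual degrees of freedom.

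The chemokine Cxcl13, which draws B cells into follicles through Cxcr5, gave larger ratios. It stood at -1.78 on the WT PBS array and 1.26 on the WT HRF array, at -1.87 and 0.16 under the FceRIa KO label, and at -1.97 and -2.29 under the FcRg KO label. It was thus higher with HRF in WT and under the FceRIa KO label and not under the FcRg KO label. The average HRF difference of 1.58 (SE 0.74) had a limma adjusted p of 0.564, and the difference between labels could not be tested with 1 array each.

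**Figure D4:**
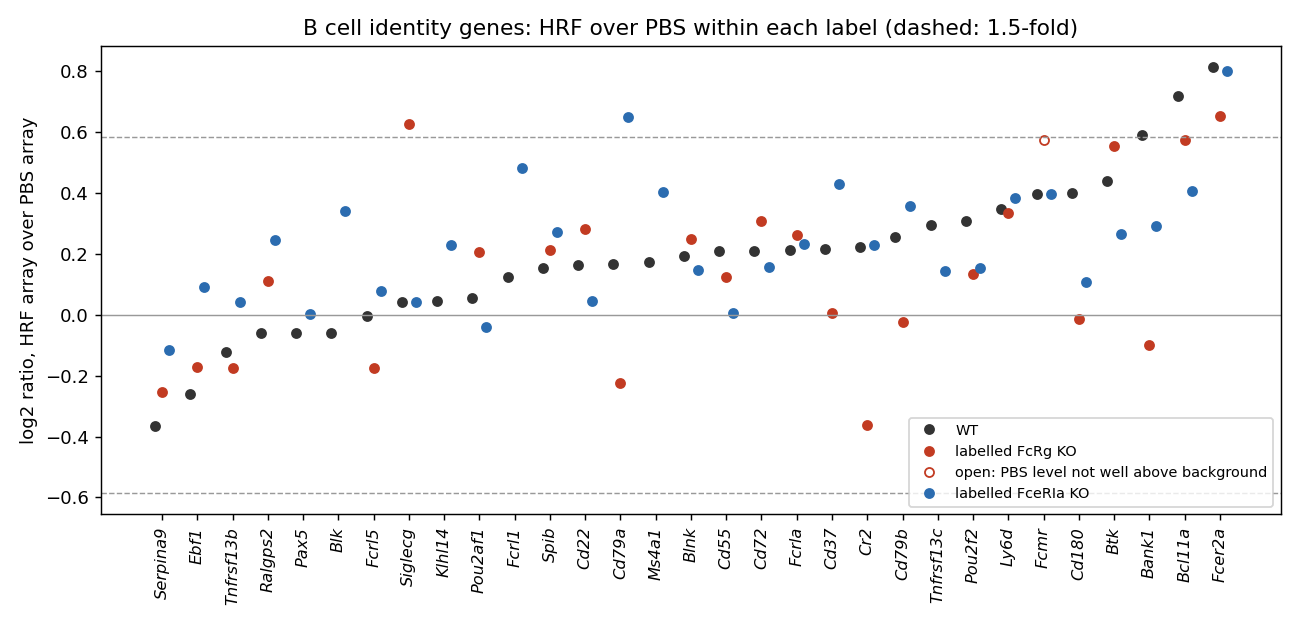
HRF array over PBS array, as a log2 ratio, for each of the 31 genes within each genotype label, 1 point per label, ordered by the WT ratio, with dashed lines at 1.5-fold. Fcer2a at the right lies above the upper line in all 3 labels, no point lies below the lower line, and 6 genes not well above background on either array labelled FcRg KO have no red point.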

How the data were processed

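Whole-lung RNA, labelled with Cy3, was measured on 6 single-colour Agilent arrays, 1 per group. Per the file headers, the scanner software was Agilent Feature Extraction 10.7.3.1, which subtracted background and removed spatial trends on each array by itself. The resulting deposited processed signal is a linear intensity without scaling across arrays. Deposited raw medians of spot and surroundings, also intensities, served the normexp alternative. A deposited value table holds log2 values whose centring is unknown. Across probes, HRF minus PBS in this table and in the scanner files correlated with r of 0.997 to 0.998. The median of its WT PBS column was 0.10 and of the others 0.

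Control spots and outlier flags were left out, spots of 1 probe averaged, and log2 levels taken relative to the 75th percentile. Of 55681 probes, 26056 were named through a RefSeq accession (RefSeq gene table, assembly GRCm38.p6), which gave 19752 genes. The brightest probe was used for the 5270 genes with several. Genes entered the fit if well above background on 1 or more arrays, at their measured values. For ratios of single arrays, a level not well above background was set to the higher of its own value and the lowest well-above-background level of its array, and gives "at least N-fold". Such a bound refers to the processed signal as scaled here and not to other processing. Where the spot's own value was the higher, the bound is the ratio to that value and sets no firm lower limit. No array was dropped or imputed.

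R 4.3.3 with limma 3.58.1 tested the differences, in a linear model with moderated variances and terms for genotype label and challenge. It leaves 2 residual degrees of freedom, and calls were made at a Benjamini-Hochberg adjusted p of 0.05. The script was tested on simulated data. Its residual is the genotype by challenge interaction. Python 3.11.15 was used elsewhere. The motif search used RefSeq promoter windows, whose orientation was checked. Named genes were the 31 genes, Fcer1g, Fcer1a, Ms4a2, Tpt1, 8 B cell genes and the 3 brightest genes of each other list. Where a list is given by its counts, those names are left out, and 1 gene of the receptor signalling list is not reported here. The 31 genes, the 17 other gene lists and the tests were chosen with earlier results of these data known. Ms4a2 stayed dim, well above background on 0 arrays, and Tpt1 ranged from 7.72 to 8.15. The alternatives were normexp correction (offset 50) with quantile normalization, the value table, another scaling (the array median), another filter (every array, or none), the mean of all probes, 1 model term and an intensity trend.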

Additional observations from a re-analysis of the deposited data

Results flagged for a closer look

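The arrays labelled FceRIa KO differed from those labelled FcRg KO, in the limma fit over both challenges, for 13 of the 31 genes at a Benjamini-Hochberg adjusted p under 0.05. Each was higher under the FceRIa KO label on both pairs of arrays. The log2 differences were 9.48 for Ms4a1, 9.22 for Fcmr, 5.59 for Tnfrsf13c, 5.28 for Pou2af1, 4.99 for Klhl14, 4.57 for Fcrl1, 4.21 for Ly6d and 4.08 for Spib. They were 3.34 for Cd79b, 2.83 for Fcer2a, 2.62 for Serpina9, 2.31 for Pax5 and 2.29 for Fcrla. Of these, Ms4a1, Tnfrsf13c, Klhl14, Fcrl1 and Pax5 were not well above background on either array labelled FcRg KO, and Fcmr was not with PBS. Their differences therefore use signal near background and are no measured folds. As bounds on the processed signal, under the FceRIa KO label Ms4a1 was at least 588-fold higher with PBS and 873-fold with HRF. Tnfrsf13c was at least 38.6-fold and 60.4-fold higher. Fcrl1 was at least 18.8-fold and 29.9-fold higher, Klhl14 at least 13.2-fold and 23.5-fold, and Pax5 at least 5.34-fold and 4.61-fold. Fcmr was at least 634-fold higher with PBS and 561-fold higher, as measured, with HRF. Apart from those of Klhl14, these bounds are ratios to the spot's own signal, not well above background, and set no firm lower limit. This test shares the arrays labelled FcRg KO with the comparison against WT. With 1 array per group, no array could be tested for standing apart from its own group.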

How the results depend on the processing

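The median difference of the 31 genes under the FcRg KO label stayed below 0 in every alternative run, while single genes did not all keep a sign: Cd180 ranged from -0.29 to 0.04 and Fcrl5 from -0.48 to 0.32. The median's PBS value of -2.77 became -1.70 with normexp and quantile normalization, -2.50 scaled on the median and -1.91 with the stricter filter, and its HRF value of -2.69 became -1.76 with normexp and -2.18 with the stricter filter. The stricter filter drops the genes not well above background under that label. The median of the FceRIa KO label over the FcRg KO label became 1.70 with PBS and 1.64 with HRF under normexp, and 1.93 and 1.89 under the stricter filter. The 13 genes called lower became 20 with normexp, 7 with the value table, whose values are rounded, and 21 with an intensity trend. The 13 called higher against the FcRg KO label became 21, 7 and 22 there, and 8 with no filter. Over all genes, the 25 called lower became 38 with normexp, 11 with the value table, 40 with the trend, 16 with no filter and 43 with 1 term only. The cause of these changes was not tested. Fcrla, Ly6d, Pou2af1 and Spib passed in all 9 settings, and Fcmr, Klhl14 and Ms4a1 in all 8 that tested them. Under the FceRIa KO label 0 of the 31 passed in any setting, while over all genes 22 were called lower when scaled on the median and 69 with 1 term only. No paired analysis was possible because the labels give no replicate numbers and each group is 1 array. Signal near background under the FcRg KO label limits Ms4a1, Pax5, Blk, Fcrl1, Tnfrsf13c and Klhl14, and Fcmr with PBS, to bounds, and the number of arrays limits every result.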
